A study of Mus musculus with 12 samples.

Results

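The AP-1 and ATF transcription factors described here were 10 genes fixed by name, Fos, Fosl1, Fosl2, Jun, Junb, Jund, Atf3, Batf, Batf2 and Maff, out of 22243 genes with a transcript in the table. The rule that names them uses no measured value, although the factors were picked with earlier results of these libraries known. All 10 were above 0 TPM in all 12 libraries and among the 8780 genes that were tested, those whose mean reached 1 TPM. TPM are read abundances divided by transcript length and scaled to the same total in each library, so that levels can be compared between genes. RNA sequencing covered bone marrow-derived macrophages (BM-Mɸs) of C57Bl/6 mice, grown in medium with M-CSF and M1-activated by IFN-γ (100 U/mL, 16 h) followed by LPS (100 ng/mL, 6 h). The cultures came from ErbB4myeKO mice (LysMCre with floxed ErbB4, n = 6) and from ErbB4FF littermates (floxed ErbB4 without the Cre, n = 6), 1 of each from 6 litters, and there was no unstimulated culture. LysMCre deletes in myeloid cells and not in macrophages alone, each library was 1 culture of 1 mouse, and the ages and sexes of the mice are not on the labels.

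AP-1 is a family of dimers whose subunits grip DNA with a basic region and pair through a leucine zipper. Fos proteins cannot pair with each other and bind as partners of Jun proteins, while Jun proteins also pair among themselves, and BATF and ATF proteins and the small Maf proteins join the same family of zippers. In macrophages LPS reaches these genes through Toll-like receptors and MAP kinases, which switch several of them on as immediate early genes within the first hour, and the dimers then act at genes for cytokines, chemokines and matrix proteases. The 6 h of LPS used here lie after the usual early peak of Fos and Jun.

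The libraries held the defining markers of macrophages, with all 8 on the list fixed for them (Adgre1, Cd68, Csf1r, Itgam, Mertk, Fcgr1, Lyz2 and Cd14) above the filter and a summed level between 7179 and 15964 TPM. Markers of other cells were lower, between 63.4 and 414 TPM for 11 neutrophil genes, 30.7 and 122 TPM for 8 dendritic cell genes, 9.28 and 103 TPM for 6 stromal genes and 0.169 and 25.8 TPM for 6 B cell genes. Erbb4 was 0.583 ± 0.242 TPM in libraries labelled ErbB4myeKO and 0.450 ± 0.132 TPM in those labelled ErbB4FF (SD, n = 6, exact permutation p = 0.25), but this value covers the whole transcript and not the deleted part alone, so that it is no check of the labels. Lyz2, the gene into which the Cre of the LysMCre line is inserted, was lower in the library labelled ErbB4myeKO in litters 1 to 5, with log2 differences between -1.20 and -0.81, and higher by 1.43 in litter 6. Lyz2 alone was read as a check of the labels of that litter, and since its mismatch was not resolved, genotypes are called by label throughout and the differences of the factors are given with and without litter 6. Litter 5 stood apart in another way, described with the differences between litters.

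The most abundant members were Junb and Atf3, and the least abundant were Fos and Fosl1. Junb, a Jun protein with weaker activity than Jun on many promoters, had a mean of 301 ± 49.1 TPM (SD, n = 12) and was higher than 95.8% of the genes tested. Atf3, a stress-induced factor known to restrain the response of macrophages to LPS, followed with 285 ± 137 TPM. Batf2, an interferon-inducible partner of IRF proteins, had 190 ± 44.6 TPM, and its relative Batf 186 ± 86.7 TPM. The middle of the order was held by Maff, a small Maf protein without an activation domain, at 49.7 ± 18.0 TPM, the broadly expressed Jund at 40.3 ± 18.0 TPM and Fosl2 (Fra-2) at 30.2 ± 11.9 TPM. Jun came to 11.8 ± 5.07 TPM, Fosl1 (Fra-1) to 8.66 ± 4.17 TPM and Fos to 8.11 ± 3.54 TPM. Fos, the founding member of the family, was higher than 46.4% of the genes tested and so lay near their middle 6 h into LPS.

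Of the 9 pairs of neighbours in this order, none differed by an exact two-sided permutation test over the means of the 6 litters. The smallest p was 0.0625, for Batf over Maff (a mean log2 difference in level of 1.79, in 5 of 6 litters) and for Fosl2 over Jun (1.26, in 5 of 6 litters), and as none passed before adjustment over the 9 pairs none could pass after it. At the ends of the order Junb, Atf3, Batf2 and Batf had means of 186 TPM or more and Fos, Fosl1 and Jun means of 11.8 TPM or less, a gap that was not tested.

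**Figure D1:**
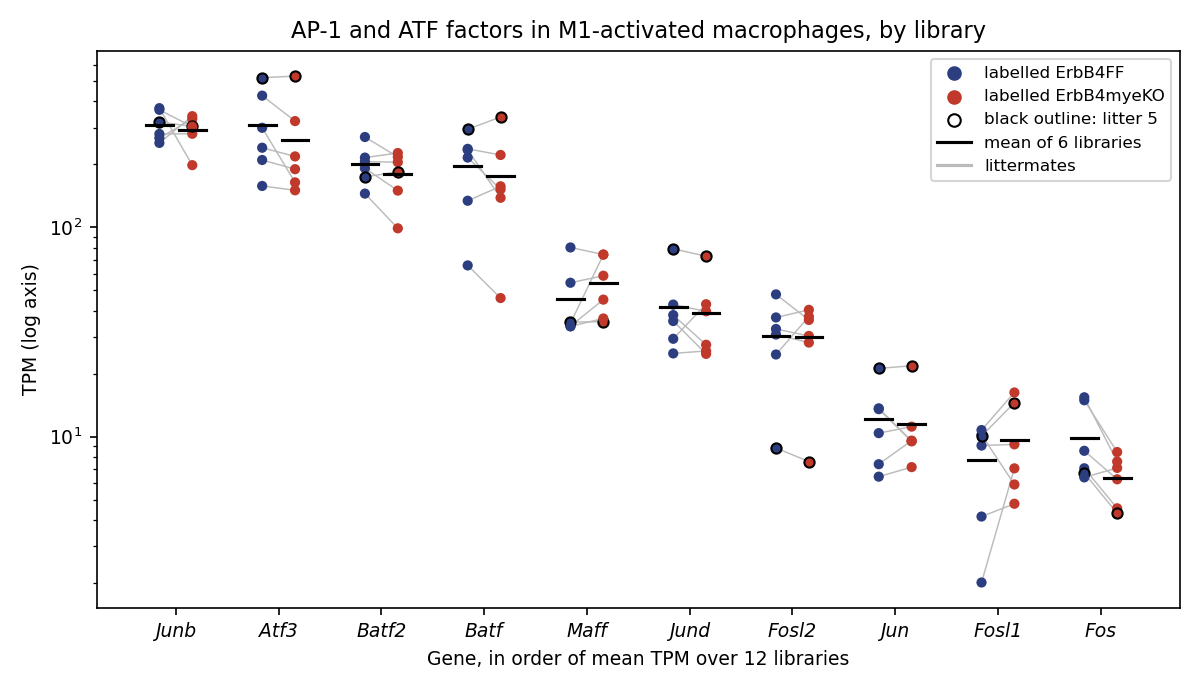
TPM of each AP-1 and ATF gene (log axis) in the 12 libraries, in the order of their mean, with libraries labelled ErbB4FF in blue, those labelled ErbB4myeKO in red, lines between littermates, short bars at the mean of 6 and a black outline for litter 5. The 2 groups overlap for all 10 genes, and litter 5 lies at an end of the range for Fosl2, Jun, Jund, Atf3 and Batf. Neither was counted over all genes tested.

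Within the Jun family Junb made up between 76.1% and 90.6% of the summed TPM (median 86.4%), Jund between 6.84% and 18.8% (median 10.2%) and Jun between 1.56% and 5.48% (median 3.01%). Junb was thus the leading Jun gene in every library. The Fos family was smaller, at 46.9 TPM on average against 353 TPM for the Jun family, and its makeup was less fixed. Fosl2 held between 28.8% and 77.6% of it (median 64.1%), Fosl1 between 3.68% and 55.0% (median 17.2%) and Fos between 9.76% and 28.8% (median 15.8%). Batf and Batf2 were near parity, with Batf between 23.5% and 64.7% of their sum (median 48.0%). Shares are of TPM, and say nothing of how much of each protein was in a dimer.

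Promoter sequences of RefSeq (GRCm38.p6, 250 bases before to 50 after a start site) matched 8 of the 10 genes, in 10 windows because Maff has several starts. These starts lay 1210 bases from that of the nearest principal transcript for Jund, 671 for Fosl2 and 338 for 1 Maff window. For the other windows the distance was 51 bases or less. They were searched on both strands for the AP-1 site TGACTCA, the cAMP response element TGACGTCA, its 5-letter part TGACG, which lies within the longer element too, and by name for the CArG box bound by SRF and the NF-κB motif. The exact letters TGACTCA were in 0 of the 10 windows (5.20% of 32851 windows of all genes), the whole cAMP response element in 1 window, of Maff (1.79%), and TGACG in 6 windows, of Atf3, Batf, Fos, Junb and Maff (20.8%). The CArG box was in 0 windows (1.63%) and the NF-κB motif in 3, of Fos, Fosl2 and Maff (4.51%). Bases farther than 250 before a start were not searched, so that 0 windows does not show that a gene lacks a box. A match describes the letters and does not show a bound site. For the AP-1 site and the response element only the exact letters were searched, so that a variant of either would be missed. Stretches of 120 bases that end just before the start are shown for 3 immediate early genes and for the Maff start with the whole element, 5′ to 3′ on the strand of the gene, with the response element, or its 5-letter part on either strand, in capitals. The stretch of Fos is at chr12:85473770-85473889 on the plus strand, that of Junb at chr8:84978749-84978868 on the minus strand, that of Atf3 at chr1:191183334-191183453 on the minus strand and that of Maff at chr15:79347400-79347519 on the plus strand.
Fos: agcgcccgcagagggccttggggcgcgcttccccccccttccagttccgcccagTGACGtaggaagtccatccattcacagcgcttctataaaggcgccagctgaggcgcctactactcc
Junb: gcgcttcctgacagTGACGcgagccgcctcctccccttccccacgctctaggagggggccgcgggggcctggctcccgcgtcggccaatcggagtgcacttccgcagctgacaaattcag
Atf3: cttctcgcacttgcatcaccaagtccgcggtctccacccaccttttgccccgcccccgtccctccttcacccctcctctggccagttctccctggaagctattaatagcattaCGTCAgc
Maff: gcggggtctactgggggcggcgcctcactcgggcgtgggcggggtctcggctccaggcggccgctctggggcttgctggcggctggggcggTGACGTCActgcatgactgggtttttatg
Counted back from the base before the start as position -1, the letters began at -66 in Fos, -106 in Junb, -7 in Atf3 and -29 in Maff.

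The main comparison asked whether the loss of ErbB4 from myeloid cells went with another level of these factors in M1-activated BM-Mɸs. No member passed an adjusted p of 0.05 (limma with litter as a block, Benjamini-Hochberg over 8780 genes, smallest adjusted p among the members 0.603), and neither did any other gene tested (0%). Without adjustment 721 of 8780 genes had a limma p under 0.05, and 1 member, Fos, was among them. Fos was lower in the libraries labelled ErbB4myeKO, where 4.38% of genes were lower at this threshold and 3.83% higher. The log2 difference was below 0 for 8 members and above 0 for Fosl1 and Maff, and 49.8% of all genes were above 0. The median over the members was -0.09 on the log2 scale, against 0.00 over all genes. When 1 litter was left out, the members below 0 numbered between 6 (without litter 3) and 8, since Jun, Fosl2 and Junb each changed sign without at least 1 litter, and the median lay between -0.19 (without litter 1) and -0.060 (without litter 3). No member went the same way in 6 of 6 litters (2.51% of genes were higher and 2.31% lower in all litters).

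Fos, the immediate early gene that gives AP-1 its best known dimer with Jun, is the gene ENSMUSG00000021250 at chr12:85473890-85477273 (GRCm38, plus strand, 1 principal transcript of 4 exons). Its level ran from 4.30 to 8.44 TPM in libraries labelled ErbB4myeKO (median 6.67) and from 6.39 to 15.4 TPM in those labelled ErbB4FF (median 7.81). The groups overlapped, and the highest levels were those of the ErbB4FF littermates of litters 2 and 4, at 15.4 and 14.9 TPM. The mean was 6.37 ± 1.67 TPM against 9.84 ± 4.20 TPM (SD, n = 6), a log2 difference of -0.54. Its limma SE was 0.15 and its 95% interval -0.88 to -0.19, with a limma p of 0.00745 (adjusted p = 0.603) and an exact permutation p of 0.0625 over swaps of genotype within litters, where 6 litters allow 0.03125 at the least. It was lower in 5 of 6 litters, with log2 differences of -0.42, -0.97, -0.58, -0.79 and -0.58 in litters 1 to 5, and higher by 0.14 in litter 6, the litter whose Lyz2 goes against its labels. Without litter 6 the log2 difference of Fos was -0.67 (exact permutation p = 0.0625, the smallest that 5 litters allow, in 5 of 5 litters).

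Fosl1 (ENSMUSG00000024912, chr19:5447547-5455946, plus strand) encodes Fra-1, which lacks the activation domain of Fos. It ran from 4.78 to 16.3 TPM in libraries labelled ErbB4myeKO (median 8.12) and from 2.01 to 10.7 TPM in those labelled ErbB4FF (median 9.56). Here too the groups overlapped, and the lowest level was that of the ErbB4FF littermate of litter 2. The log2 difference of 0.36 (limma SE 0.27, 95% interval -0.26 to 0.97, limma adjusted p = 0.695, exact permutation p = 0.344) was above 0 in 5 of 6 litters. It was 0.31 without litter 6, 0.58 without litter 3 and 0.11 without litter 2, the litter with its widest gap (1.59). Fosl2 (ENSMUSG00000029135, chr5:32135801-32157842, plus strand) encodes Fra-2 and ran from 7.60 to 40.4 TPM (median 33.2) against 8.83 to 47.8 TPM (median 31.7). Its groups coincided apart from the ends, with a log2 difference of -0.02 (95% interval -0.32 to 0.28, limma adjusted p = 0.965), of -0.14 without litter 6 and of 0.055 without litter 3.

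Of the Jun family, Jun (ENSMUSG00000052684, chr4:95049034-95052222, minus strand, a gene of 1 exon) ran from 7.15 to 21.8 TPM in libraries labelled ErbB4myeKO (median 9.55) and from 6.44 to 21.2 TPM in those labelled ErbB4FF (median 12.0). The log2 difference was -0.06 (95% interval -0.37 to 0.26, limma adjusted p = 0.902), -0.14 without litter 6 and 0.029 without litter 2. Jun did not separate the groups, as its 2 highest values were those of littermates. Junb (ENSMUSG00000052837, chr8:84974484-84978718, minus strand) ran from 198 to 340 TPM (median 303) against 253 to 371 TPM (median 299), with a log2 difference of -0.09 (95% interval -0.47 to 0.30, limma adjusted p = 0.882), and -0.05 without litter 6, -0.16 without litter 1, -0.19 without litter 2 and 0.078 without litter 3. Its largest gap between littermates was in litter 3, with 198 TPM labelled ErbB4myeKO and 371 TPM labelled ErbB4FF, which were also the ends of its whole range. Jund (ENSMUSG00000071076, chr8:70698949-70700616, plus strand) ran from 24.9 to 72.8 TPM (median 33.6) against 25.0 to 79.0 TPM (median 36.9), with a log2 difference of -0.10 (95% interval -0.43 to 0.22, limma adjusted p = 0.828), -0.03 without litter 6, -0.02 without litter 3 and -0.23 without litter 1. The intervals of all 3 Jun genes hold 0 and exclude a change of 2-fold in either direction.

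Atf3 (ENSMUSG00000026628, chr1:191170296-191218039, minus strand) ran from 150 to 529 TPM in libraries labelled ErbB4myeKO (median 204) and from 158 to 519 TPM in those labelled ErbB4FF (median 270). The groups overlapped over nearly their whole range, while within litters the library labelled ErbB4myeKO was the lower one in 5 of 6 litters. The log2 difference was -0.27 (limma SE 0.12, 95% interval -0.54 to 0.01, limma p = 0.0555, adjusted p = 0.603, exact permutation p = 0.0625) and -0.24 without litter 6 (exact permutation p = 0.125). Litter 2 had the widest gap, 164 TPM against 299 TPM, and without it the log2 difference was -0.15. The highest levels were those of litter 5, 529 TPM against 519 TPM.

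Batf (ENSMUSG00000034266, chr12:85686669-85709087, plus strand), which pairs with Jun proteins and binds beside IRF4 and IRF8, ran from 45.9 to 337 TPM in libraries labelled ErbB4myeKO (median 155) and from 65.8 to 294 TPM in those labelled ErbB4FF (median 225). The 2 lowest libraries were the littermates of litter 3 and the 2 highest those of litter 5. Its log2 difference was -0.24 (95% interval -0.58 to 0.09, limma adjusted p = 0.644, exact permutation p = 0.219), -0.19 without litter 6 and -0.14 without litter 2. Batf2 (ENSMUSG00000039699, chr19:6140983-6172476, plus strand) ran from 99.0 to 227 TPM (median 195) against 145 to 270 TPM (median 199). Its lowest level was that of the library labelled ErbB4myeKO of litter 6. The log2 difference of Batf2 was -0.18 (95% interval -0.41 to 0.05, limma adjusted p = 0.627, exact permutation p = 0.219), and -0.11 without litter 6.

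Maff (ENSMUSG00000042622, chr15:79346621-79359076, plus strand), which binds antioxidant response elements with NFE2L2 or as a repressing dimer of small Maf proteins, ran from 35.4 to 74.2 TPM in libraries labelled ErbB4myeKO (median 52.0) and from 33.6 to 80.2 TPM in those labelled ErbB4FF (median 35.0). The groups overlapped, with the highest level in the ErbB4FF littermate of litter 3. Its log2 difference of 0.27 (limma SE 0.15, 95% interval -0.09 to 0.63, limma adjusted p = 0.641, exact permutation p = 0.125) was above 0 in 5 of 6 litters and 0.30 without litter 6. Litter 2 contributed the widest gap, 74.0 TPM against 34.8 TPM, and without it the log2 difference was 0.11.

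**Figure D2:**
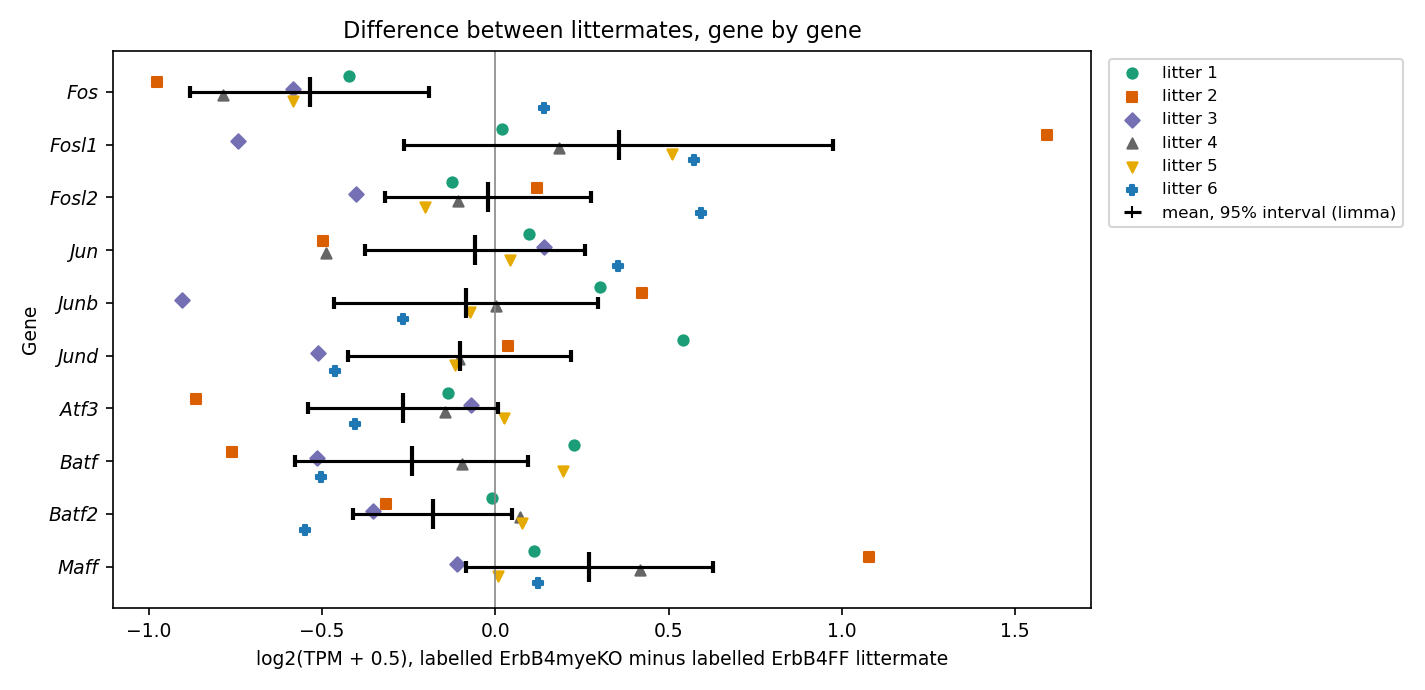
Difference in log2(TPM + 0.5) between littermates, labelled ErbB4myeKO minus labelled ErbB4FF, for each gene, with 1 symbol per litter and a bar at the mean with limma's 95% interval. The interval lies wholly below 0 for Fos and holds 0 for the other genes, and the 5 symbols of Fos below 0 are those of litters 1 to 5.

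Litters differed in how their members moved. In litter 3 the library labelled ErbB4myeKO was lower for 9 of 10 members (median log2 difference -0.46, with Jun the exception), whereas in litters 1 and 5 it was higher for 6 of 10 (medians 0.06 and 0.02). The medians over all genes were between -0.02 and 0.02 in the 6 litters. The within-litter differences of members are not independent of each other, since they come from the same pair of libraries.

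Most of these factors differed between litters. The labels give each litter its own batch letter, A to F. Differences between litters thus cannot be told apart from differences between batches. In the same limma fit, 8 of 10 members differed between litters at an adjusted p of 0.05 (Fos, Fosl2, Jun, Jund, Atf3, Batf, Batf2 and Maff), where 44.9% of all genes did. The calls of Fos and Maff were the least firm, since both ended with litter alone in the fit, with no filter, with no trend and without litter 1 or litter 4, each of which left 6 members. Both also ended without litter 3, Fos without litter 2 and Maff without litter 6, and Batf ended without litter 3 and Batf2 without litter 6. The exceptions were Fosl1 (F test, limma adjusted p = 0.0673) and Junb (limma adjusted p = 0.921), of which Fosl1 passed without litter 2 and without litter 3. Litter held a median of 85.5% of the sum of squares of a member (78.1% over all genes) and genotype 3.86% (2.49%), where with no effect the degrees of freedom alone (5 and 1) would give 45.5% and 9.09% on average. Fosl2 was the extreme, with 95.9% of its sum of squares between litters, and Junb the opposite, with 16.0%. Much of this came with litter 5: without it 3 members passed (Atf3, Batf and Batf2, where 11.5% of genes did), and without litters 5 and 6 none did by limma's F test (0.222% of genes). In that last fit 2 members, Fos and Batf, had an unadjusted limma p under 0.05 for litter, where 22.7% of genes did.

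Both libraries of litter 5 lay outside the range of the other 10 for 5 members. The share of all genes for which they did so was not counted, so that this is not shown to be particular to these factors. Jun was 21.8 and 21.2 TPM there (labelled ErbB4myeKO and ErbB4FF) against 6.44 to 13.7 TPM elsewhere. Jund stood at 72.8 and 79.0 TPM against 24.9 to 42.9 TPM. These Jun genes were thus higher in litter 5 while Junb, at 304 and 319 TPM, lay within its range elsewhere. Atf3 was 529 and 519 TPM against 150 to 426 TPM, and Batf 337 and 294 TPM against 45.9 to 237 TPM. Fosl2 went the other way, with 7.60 and 8.83 TPM against 24.7 to 47.8 TPM, and was no longer the leading Fos gene there. In litter 3 Batf was lowest, at 45.9 and 65.8 TPM against at least 134 TPM in the other libraries.

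**Figure D3:**
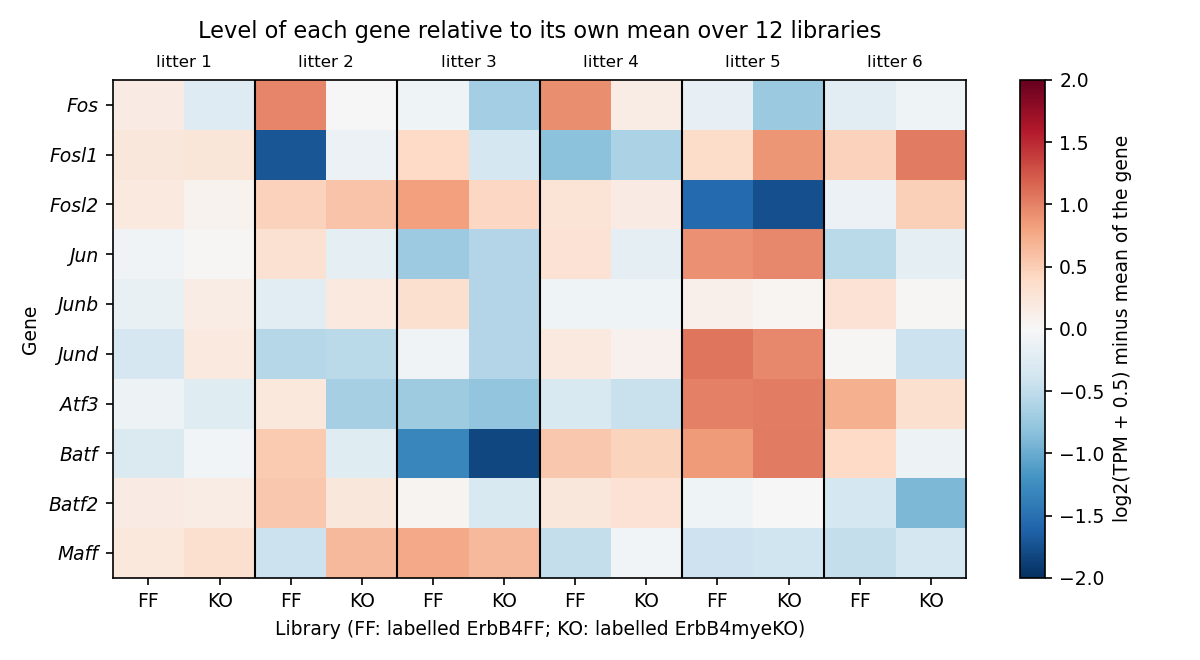
Log2(TPM + 0.5) of each gene minus its own mean over 12 libraries (colour, red above and blue below), with a row per gene and libraries in columns by litter, FF for those labelled ErbB4FF and KO for those labelled ErbB4myeKO. Jun, Jund, Atf3 and Batf are red and Fosl2 blue in both libraries of litter 5, and Batf is darkest blue in litter 3.

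Litter 5 also differed over the whole table. The tabulated transcripts held 71.4% and 74.7% of all TPM in its libraries and 59.0% to 64.9% in the others. Across the 8780 genes, the deviation of a library from the mean of each gene followed transcript length in litter 5, with a Spearman correlation of -0.52 in both libraries, against -0.30 to 0.34 in the others, where genes are not independent replicates. The median log2 difference of litter 5 from the other litters was 0.88 for genes up to 1 kb and -0.71 for genes over 5 kb. The summed level of the B cell markers was 20.1 and 25.8 TPM in litter 5 and 0.169 to 5.76 TPM elsewhere, although Ms4a1, a defining marker among them, was under 0.1 TPM in all 12 libraries. The 4 mast cell and basophil genes (2.57 and 3.71 TPM against at most 1.28 TPM) and the 5 erythroid genes (0.696 and 0.410 TPM against at most 0.325 TPM) were also highest in litter 5, with Fcer1a, Ms4a2, Hbb-bs and Alas2 under 0.1 TPM in all 12 libraries. The part of length and of these markers in the levels of the members was not tested, and in bulk libraries fewer cells of a type and less RNA per cell cannot be told apart.

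Beside genes of like length the members of litter 5 read as follows. Fosl2, the longest (6537 bases), had a log2 difference of -1.99 from the other litters, with a median of -0.71 for genes over 5 kb. Batf, the shortest (955 bases), was higher by 1.14, with a median of 0.88 for genes up to 1 kb. Jun (3189 bases) was higher by 1.13 where genes of 3 to 5 kb had a median of -0.24, so that it and its length class lay on opposite sides of 0. Among genes of 1 to 2 kb, with a median of 0.49, Atf3 and Jund were higher by 1.22 and 1.21 and Fosl1 by 0.75, Junb and Batf2 lay at 0.08 and -0.06, and Maff at -0.49. Fos (2108 bases) lay at -0.55 with a median of 0.10 for genes of 2 to 3 kb.

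**Figure D4:**
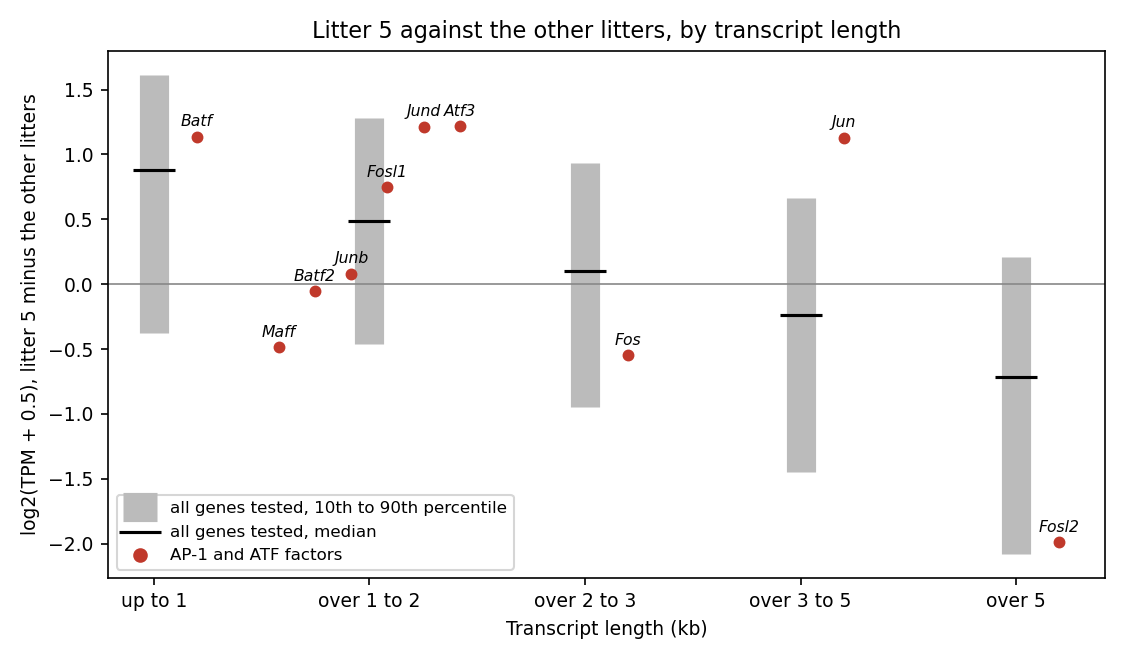
Mean log2(TPM + 0.5) of litter 5 minus that of the other litters (vertical axis) by class of transcript length in kb, with grey bars from the 10th to the 90th percentile of all genes tested, black lines at their median and red points for the AP-1 and ATF factors. The median of all genes goes from 0.88 in the shortest class to -0.71 in the longest, and Jun is the factor farthest above the median of its class.

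Atf3 and Maff are the 2 members with more than 1 principal transcript, and their TPM are sums. For Atf3, ENSMUST00000027941 (start at chr1 position 191183340) held between 29.3% and 91.0% of the sum (median 53.1%) and ENSMUST00000195117 (start at 191218039) between 9.01% and 70.7% (median 46.9%). The second was highest in litter 5, with 374 and 301 TPM, and lowest in the library labelled ErbB4myeKO of litter 3, at 13.5 TPM. Between genotypes the log2 difference was -0.12 ± 0.53 for the first (SD over 6 litters, exact permutation p = 0.563) and -0.69 ± 1.10 for the second (exact permutation p = 0.219), and without litter 6 these were -0.0077 and -0.82. Without litter 3 they were -0.32 and -0.31. For Maff, ENSMUST00000096350, whose start carries the cAMP response element shown above, led with a median share of 60.2% (range 28.3% to 98.8%). It was 41.2 ± 16.3 TPM in libraries labelled ErbB4myeKO and 25.3 ± 18.5 TPM in those labelled ErbB4FF, a log2 difference of 0.88 ± 1.05 (exact permutation p = 0.156), positive in 4 of 6 litters and 0.82 without litter 6. The groups of this transcript overlapped, from 18.5 to 61.0 TPM against 9.55 to 51.2 TPM. ENSMUST00000229130 came to a median of 23.1% of Maff, and ENSMUST00000163691 was under 0.01 TPM in 6 libraries. Both went the other way between genotypes. The log2 difference was -0.42 ± 1.04 for ENSMUST00000229130 (exact permutation p = 0.3125) and -1.27 ± 1.89 for ENSMUST00000163691 (exact permutation p = 0.219). Without litter 6 these were -0.19 and -1.53. Between 87.7% and 91.8% of the 31-mers of these Atf3 and Maff transcripts are shared with another transcript of that gene, so that the split between them is less certain than the sum. The only principal transcript of Batf2 shares 99.7% of its 31-mers with other transcripts of its gene, which are not counted here. Its level and its share beside Batf may depend on how reads were divided, which was not tested. The other members with 1 principal transcript shared 33.8% or less. No 31-mer of the 13 transcripts of the members occurs in a transcript of another gene.

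**Figure D5:**
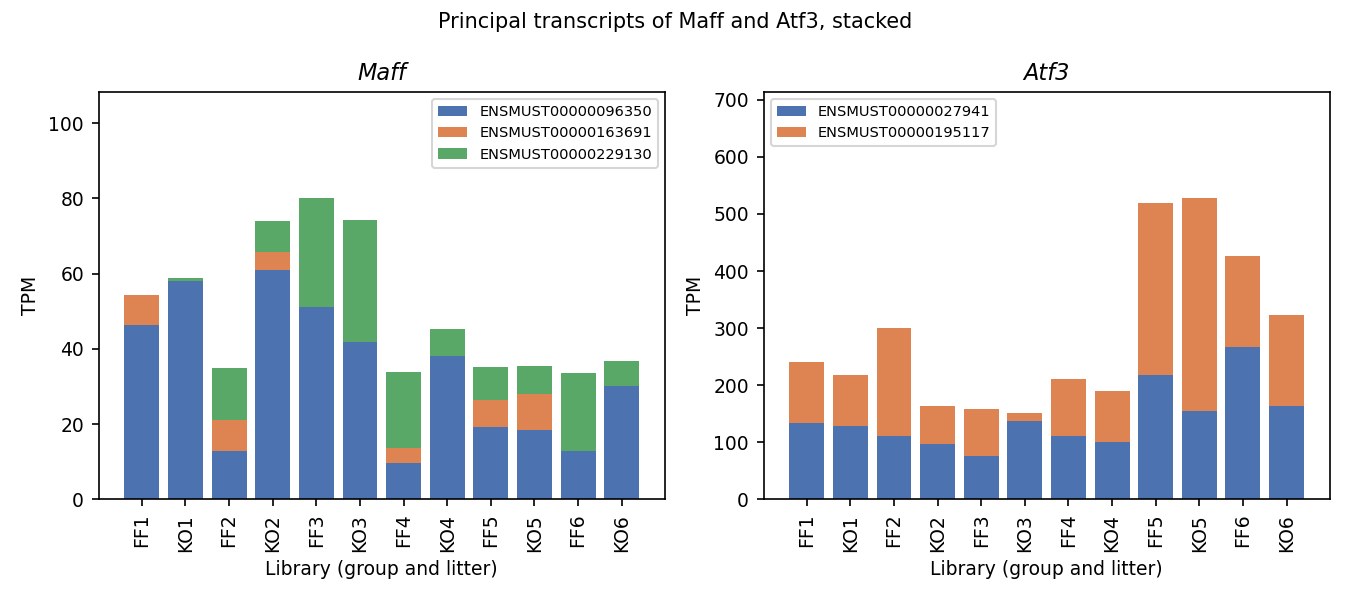
Stacked TPM of the principal transcripts of Maff (left) and Atf3 (right) in the 12 libraries, FF for those labelled ErbB4FF and KO for those labelled ErbB4myeKO, numbered by litter. ENSMUST00000096350 of Maff is 61.0 TPM in KO2 and 12.8 TPM in FF2, and ENSMUST00000195117 of Atf3 reaches 374 and 301 TPM in litter 5.

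Members differed in which of their relatives they followed across the 12 libraries, which share litters and the length trend, so that these correlations of log2(TPM + 0.5) are descriptions. The highest r between members was 0.77, for Batf and Jun, followed by 0.74 for Atf3 and Batf and 0.71 for Jun and Jund. The lowest were -0.88 for Fosl2 and Jund and -0.84 for Batf and Maff. Between the differences of littermates, over 6 litters, the order was another one. There Batf and Jun had an r of 0.17 and Fosl2 and Jund one of -0.17, the highest were 0.86 for Fos and Jun and 0.83 for Fosl1 and Maff, and the lowest was -0.88 for Atf3 and Maff. The genes most like each member over 12 libraries were Rnf214, Ssh1 and Sco1 for Fos (r = 0.93 for the first), Alg8, Tubb6 and Itgax for Fosl1 (0.98), Zbed4, Crk and Kdm2a for Fosl2 (0.98) and Anxa4, Sdhd and Maf1 for Jun (0.95). For Junb they were Nme6, Ift27 and Pced1a (0.89), for Jund Tpt1, Arf5 and Ube2s (0.97), for Atf3 Asna1, Chmp6 and Cops4 (0.96) and for Batf Fancg, Oas1c and Cnn2 (0.98). Batf2 was most like Vsir, Zbtb5 and Cxcl11 (0.95 for the first, 0.93 for Cxcl11, an interferon-induced chemokine), and Maff was most like Hacd2 (0.99) and Il23a, a cytokine subunit (0.97). No member was among the 3 genes most like another.

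The genes around these factors were read by the same fit, in lists of which no gene passed an adjusted p of 0.05. An unadjusted limma p under 0.05, which 3.83% of all genes had as higher and 4.38% as lower, is given as a count, and without the replicate block that count was 0 in all 8 lists. Of 25 other bZIP factors tested, 12 were higher and 13 lower in libraries labelled ErbB4myeKO (median log2 difference 0.00), with 2 each way at an unadjusted limma p under 0.05. Mafg, the small Maf relative of Maff, was 41.0 ± 11.3 TPM against 32.9 ± 11.8 TPM, with a log2 difference of 0.34 that was above 0 in 6 of 6 litters (limma adjusted p = 0.603), and Nfe2l1 differed by 0.35, also in 6 of 6 litters. Creb3 and Maf had the differences -0.27 and -0.34, each below 0 in 5 of 6 litters, and Maf lost its unadjusted p under 0.05 without litter 2, 4 or 6. Upstream of AP-1, 26 genes of the MAP kinase cascade divided into 13 higher and 13 lower, with 1 at an unadjusted limma p under 0.05, Map3k5 (ASK1, a stress kinase, log2 difference 0.61), which was not past it without litter 2, 4 or 6 (0.44, 0.54 and 0.56). Without litter 3 the list had 1 higher and 3 lower at that p. Traf6, Map3k1 and Map2k4 followed by p, with differences of 0.18, -0.40 (-0.24 without litter 2) and -0.15. Of 19 regulators of Fos and Jun, 9 were higher and 10 lower, with 1 at an unadjusted limma p under 0.05: Sirt1, a deacetylase with a mean of 0.950 against 1.81 TPM, had a difference of -0.90 that was past it only with litters 1, 3, 4 and 6 all in the fit (-0.74 without litter 6). It was followed by p by Cop1 (0.20, and 0.12 without litter 2), Mrtfa (0.22, and 0.13 without litter 6) and Tnip1 (-0.75, and -0.24 without litter 6).

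Among 27 other immediate early genes, 17 were higher and 10 lower (median 0.10), with 1 higher and 2 lower at an unadjusted limma p under 0.05. Dusp1, a phosphatase that switches MAP kinases off, was lower in 6 of 6 litters, at 218 ± 87.4 TPM in libraries labelled ErbB4myeKO and 283 ± 108 TPM in those labelled ErbB4FF (log2 difference -0.39, limma SE 0.11, adjusted p = 0.603). Csrnp1 was lower in 6 of 6 litters as well (-0.17), while Ccn1 and Rhob had the differences 0.81 and 0.63, above 0 in 5 of 6 litters (0.55 and 0.33 without litter 2). Without litter 2, 13 of 28 tested were higher, so that the majority was lower. The counts at that p were 4 higher and 1 lower without litter 5, and 2 higher without litter 1, 3 or 6. Of the 3 past the unadjusted threshold, Csrnp1 was not past it without litter 3, 5 or 6 and Ccn1 without litter 2 or 6. Of 28 AP-1 linked inflammatory and matrix genes, 21 were higher and 7 lower, with a median log2 difference of 0.31 against 0.00 over all genes. Of these, 6 had an unadjusted limma p under 0.05, all higher, among them the chemokine Cxcl1 (1.14), the chemokine Cxcl3 (1.26), the protease Mmp10 (0.66) and the haem oxygenase Hmox1 (0.38), each in 6 of 6 litters. Without litter 2 these were 0.71, 0.77, 0.43 and 0.31. When 1 litter was left out the count of higher genes was between 19 and 24, and the 6 became 3 without litter 4, 4 without litter 2 or litter 6 and up to 8 without litter 5. This list was written with earlier results of the same libraries known, so its direction is not independent evidence.

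Of 15 IRF partners and IFN-γ targets linked to Batf and Batf2, 4 were higher and 11 lower (median -0.06), and 2 had an unadjusted limma p under 0.05. Both of these, Cxcl11 and Cxcl10, chemokines that IFN-γ induces, were lower in 6 of 6 litters, with log2 differences of -0.57 and -0.18 (limma adjusted p = 0.603 for each), and Ciita had the difference 0.29. Cxcl10 was not past the unadjusted threshold without litter 1, 4 or 6. The count of lower genes past it was 3 without litter 1 or litter 5 and 1 without litter 4 or litter 6. Without litter 6 there was also 1 higher gene. Of 14 stress and ATF4-CHOP targets linked to Atf3, 11 were higher and 3 lower (median 0.11), with 2 at an unadjusted limma p under 0.05, both higher. The 4 leading genes by p were Asns at 0.50, Slc7a11 at 0.99, Gadd45a at 0.23 and Psat1 at -0.26, and without litter 2 they were 0.33, 0.58, 0.16 and -0.17. Without litter 4 or litter 6 the count of 2 was 1. Of 16 Maff partners and antioxidant targets, which share Mafg, Nfe2l1, Hmox1 and Slc7a11 with the other lists, 14 were higher and 2 lower (median 0.34). In that list 8 had an unadjusted limma p under 0.05, all higher, and 7 were higher in 6 of 6 litters, for example Srxn1, which encodes sulfiredoxin, at 189 ± 102 TPM against 138 ± 85.1 TPM (log2 difference 0.56). The 8 became 5 without litter 4, 6 without litter 6 and 9 without litter 1 or litter 5. This list too was written with earlier results known.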

How the data were processed

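RNA sequencing covered 12 cultures of M1-activated BM-Mɸs, 6 labelled ErbB4myeKO and 6 labelled ErbB4FF, paired by the litter number of the labels. The authors pseudoaligned single-end reads with kallisto and deposited TPM of 28808 transcripts that APPRIS marks as principal, and the submitters' processing notes name mm10, CASAVA and sleuth. The version of kallisto is not given in the sources used here. Of 29213 lines, 405 repeat a transcript and were counted once. The deposited columns of sleuth (p-value, q-value, mean count) were not used. TPM carry no depth, so the read depth behind a value is unknown, and precision rests on the spread between litters. Genes above 0 TPM numbered between 10214 and 12985 per library.

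After TPM had been summed per gene, 8780 genes with a mean of 1 TPM or more entered a limma fit of log2(TPM + 0.5) (limma 3.58.1, R 4.3.3, lmFit, then eBayes with a trend). Litter was the block. The study adjusted for litter and sex, and sex was left out of the main fit because the labels do not give it. An F test of litters came from the same fit. A fold change on this scale understates that of low genes. Adjusted p (Benjamini-Hochberg over 8780 genes) under 0.05 was the threshold. Single genes were also given an exact permutation test (two-sided, 64 swaps of genotype inside litters). Littermates correlated in their deviations from the gene means, with r between 0.273 and 0.774, and 11 of 12 libraries were most like their littermate, so that the numbers of the labels pair the libraries. P-values measure the spread between single cultures of separate mice. Positions are from GENCODE M21 (GRCm38) and promoters from RefSeq. Other steps used Python 3.11.15 (pandas 2.3.3, numpy 2.4.6, scipy 1.17.1, matplotlib 3.10.9).

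The factors and the gene lists were chosen with earlier results of these data known. Genes named are the 10 factors, the 4 genes with the smallest limma p of each list, the 3 genes most like each factor by Pearson r, Erbb4 and Lyz2, and the marker genes, and some genes that this rule selects are not reported here. The genotype fit was tested on simulated data (8780 genes, 200 of them changed), where it called 59% of those with a true log2 change of 1 and 87% with one of 2, and 5 of its 151 calls were false. Alternatives were no block, a Y-linked covariate in place of sex (which is not on the labels), pseudocounts of 0.1 and 1, no filter and a mean of at least 5 TPM, median-ratio rescaling, no trend, the highest transcript alone and each litter left out. Leaving out litters 5 and 6 together was added after the data were seen. Protein sequences were not used here.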

Additional observations from a re-analysis of the deposited data

Results flagged for a closer look

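Each of the 20 groups of 6 libraries (10 genes in 2 genotypes) was searched for a library whose gap to its nearest neighbour took more of the range of the group than Dixon's 95% value for 6 samples allows. Such a library stood out in 3 groups, each time a library of litter 5. Chance picks out about 1 in 20 groups. Fosl2 was 7.60 TPM in the library labelled ErbB4myeKO of litter 5, where the next level was 28.2 TPM (gap over range 0.628). Jun was 21.8 TPM in the same library, with the next level at 11.2 TPM (0.726). Jund was 79.0 TPM in the library labelled ErbB4FF of litter 5, with the next level at 42.8 TPM (0.671). The littermates, at 8.83 TPM for Fosl2, 21.2 TPM for Jun and 72.8 TPM for Jund, lay on the same side, and these groups hold no other library of that litter.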

How the results depend on the processing

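Of all genes, 1 passed an adjusted p of 0.05 for genotype without litter 3 and 0 under the other alternatives. The 10 factors kept an adjusted p above 0.05 for genotype under all 16 alternatives (lowest 0.499, for Fos without litter 5), and the log2 difference of Fos was between -0.69 and -0.45. The count of members with an unadjusted limma p under 0.05, 1 in the paired fit, was 0 with no replicate block, 2 with the highest transcript alone and between 1 and 2 when 1 litter was left out. Without the block the limma p of Fos was 0.0626, and 75 genes in all had a p under 0.05 against 721 with it. The second member was Maff by its highest transcript (log2 difference 0.88), Fosl1 without litter 3 (0.58) and Atf3 without litter 5 (-0.32). The block also decided the unadjusted counts of the lists, which were 0 without it. No adjusted call for genotype was made with or without it. When 1 litter was left out, Jun lay between -0.14 and 0.029 (0.029 without litter 2 and 0.028 without litter 4), Fosl2 between -0.14 and 0.055 (0.055 without litter 3, 0.015 without litter 5) and Junb between -0.19 and 0.078 (without litter 3), so that these had no stable direction. The count of members that differed between litters was between 3 (without litter 5) and 8 when 1 litter was left out, and 0 without litters 5 and 6. Atf3 came to 144 TPM by its highest transcript alone, rank 4 of the 10. Rescaling moved the median of all genes to -0.01. With the Y-linked covariate the log2 difference was -0.62 for Fos and -0.099 for Fosl2, and 8 members were again below 0. Fosl1 and Maff each came to 0.11 without litter 2. Depth could not be used, since TPM do not carry it.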
